A study of Mus musculus with 12 samples.

Results

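Riociguat added for the last 24 h of culture was compared with riociguat added for the last 12 h, in cells that the labels call HSCs, from the liver of wild-type mice. The comparison takes the libraries whose labels give riociguat and 24 h or 12 h, which are 6 of the 12 samples of the series, 3 in each group. No label writes the abbreviation out, and hepatic stellate cells are assumed. All cultures were seeded fresh after isolation, kept for 12 h, given new medium and collected 24 h later. In the 24 h group riociguat went in with the new medium, at 0 h. The 12 h group received it 12 h after the medium change. The other 6 libraries, DMSO for the last 12 h and riociguat for the last 6 h, serve as reference levels. The length of exposure and the stage of culture at which the compound was added cannot be told apart, and none of these samples is a solvent group treated from the medium change on. The sources used here do not give the dose. Whether replicates are separate animals, isolations or wells is not labelled, so the p-values reflect the spread among these libraries alone, and that spread may be technical.

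Riociguat stimulates soluble guanylate cyclase, the receptor of nitric oxide, which makes the second messenger cGMP. cGMP acts through cGMP-dependent protein kinases, gated channels and phosphodiesterases, and in pericytes and smooth muscle it relaxes the contractile apparatus. Hepatic stellate cells are the retinoid-storing pericytes of the liver sinusoid. In injury and on culture plastic they turn into myofibroblasts that contract and deposit collagen matrix.

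RNA was measured as estimated counts per gene. Levels below are CPM, counts scaled to the size of each library and between libraries, 1 value for each library in the order of the replicates. Differences are fitted log2 fold changes at 24 h over 12 h with their standard errors (SE), so that 1 is a doubling. A gene is said to have risen or fallen where edgeR's quasi-likelihood test gave a Benjamini-Hochberg adjusted p under 0.05. The 6 libraries held 16644098 to 24104570 counts, and mitochondrially encoded genes took 3.53% to 4.75% of them at 12 h and 3.13% to 3.84% at 24 h. Several markers of stellate cells were at high levels in both groups and others at low levels. Reln, the secreted glycoprotein reelin, was at 1593 ± 33.6 CPM (SD, n = 3) at 12 h and 1665 ± 51.4 at 24 h, and desmin (Des) at 139.7 ± 4.66 and 132 ± 4.77. Lrat, which esterifies retinol for storage, was at 6.12 ± 0.345 and 9.08 ± 0.206 CPM. Gfap, used as a stellate cell marker in rodents, was near the detection limit, at 0.386 ± 0.174 and 0.539 ± 0.215 CPM. Of the 26 stellate identity genes, 2 rose and none fell, a share of 7.69% against 3.08% of all genes that changed.

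Few genes passed the test between the exposures, and most of those changed by less than 0.5 on the log2 scale. Of 16036 genes tested, 494 (3.08%) changed. Of these, 219 (1.37% of those tested) were higher at 24 h and 275 (1.71%) were lower. The median fold change of all genes tested was -0.0020 on the log2 scale, and 2243 of the 16036 had an unadjusted p under 0.05. Only 45 genes changed by at least 1, of which 8 rose and 37 fell, and 285 of the 494 changed by less than 0.5. The 40 gene lists used here were chosen with earlier results of these data known. Of their 878 distinct tested genes, 135 were called. A list share above 3.08% is therefore common among these lists and does not by itself set a list apart. All 3 libraries of one group lay above all 3 of the other for 3159 genes (19.7%), higher at 24 h for 1507 (9.4%) and lower for 1652 (10.3%). The count of changed genes depended on single libraries: it was 318 without replicate 1 at 12 h and 319 without replicate 2 at 12 h. The risen genes numbered 145 without replicate 2 and 143 without replicate 3 at 12 h. The fallen genes numbered 172 and 174 without replicates 1 and 2 at 12 h and 180 without replicate 3 at 24 h.

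**Figure D1:**
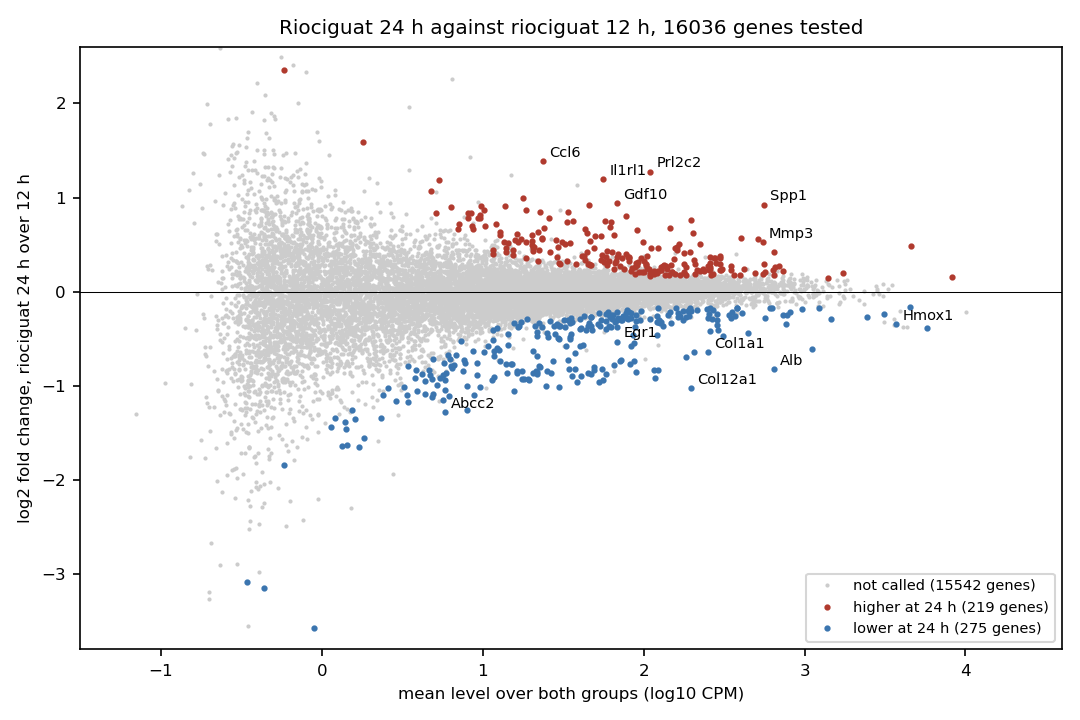
Fitted log2 fold change at 24 h over 12 h (vertical axis) against the mean level of both groups in log10 CPM (horizontal axis), 1 point per gene; 16 genes lie outside the plotted limits. Red points are the 219 genes that rose and blue points the 275 that fell, and most coloured points lie within 1 log2 unit of the zero line.

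Many genes of mitosis rose. Of 28 genes of the G2 and M phases tested, 14 rose and none fell, against 1.37% of all genes that rose. All 28 had a positive fold change, their median was 0.53, and in 22 of them every library at 24 h was above every library at 12 h, against 9.4% of all genes. The summed level of the 28 genes was 276, 302 and 288 CPM at 12 h and 463, 415 and 380.2 CPM at 24 h. The lowest library at 24 h was above the highest at 12 h, and replicate 1 at 24 h was the highest of all. In the reference groups the sum was 289 to 300.4 CPM with DMSO and 192 to 221 CPM after 6 h of riociguat. Without replicate 1 at 24 h the count of risen members was 7, and it was 8 without replicate 1 or replicate 2 at 12 h.

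Ccnb1, cyclin B1, which drives entry into mitosis with its kinase partner, was at 7.12, 6.69 and 7.85 CPM at 12 h and 12.9, 14.7 and 12.1 CPM at 24 h. Its fold change was 0.87 ± 0.16 (SE; adjusted p = 0.00397). Mki67, the proliferation antigen Ki-67 that coats mitotic chromosomes, went from 40.6, 45.9 and 43.2 CPM to 69.6, 67.2 and 59.2 CPM, a fold change of 0.59 ± 0.082 (adjusted p = 0.000326). The groups did not overlap in either gene. Top2a, the topoisomerase that untangles sister chromatids, was at 37.03, 39.2 and 37.2 CPM and then 60.4, 54.1 and 49.95 CPM (0.54 ± 0.089, adjusted p = 0.0017). Ube2c, the ubiquitin-conjugating enzyme of the anaphase-promoting complex, was at 5.71, 6.03 and 6.13 CPM and 11.1, 9.61 and 9.99 CPM (0.78 ± 0.13, adjusted p = 0.00209). In each of these genes the 6 h group was the lowest of the 4, with means of 5.78 CPM for Ccnb1, 24.9 for Mki67, 23.6 for Top2a and 4.25 for Ube2c. The mitotic kinase Plk1 (0.78 ± 0.15), cyclin A2 (Ccna2, 0.53 ± 0.097) and the spindle assembly factor Tpx2 (0.49 ± 0.099) also rose. These 7 genes were called with each of the 6 libraries left out in turn. The mitotic kinesin Kif2c, at 4.16, 4.54 and 4.59 CPM and 9.61, 8.37 and 6.87 CPM, had the largest fold change of the list, 0.90 ± 0.20. It lost its call without replicate 1, 2 or 3 at 12 h or replicate 1 at 24 h (highest adjusted p 0.0957).

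No gene of the S phase passed the test. Of 30 genes for DNA replication, 0 rose and 0 fell by edgeR or by DESeq2, and 7 had an unadjusted p under 0.05. Their median was 0.12, 28 had a positive fold change, and 10 had all libraries at 24 h above all at 12 h, against 9.4% of all genes. Their summed level was 1151, 1151 and 1167 CPM at 12 h and 1261, 1225 and 1240.2 CPM at 24 h, which did not overlap. The replication clamp Pcna was at 167 ± 2.84 CPM and 178 ± 6.57 CPM (SD, n = 3), a fold change of 0.090 ± 0.046 (adjusted p = 0.409). Whether the fold changes of the S phase and G2/M lists differ was not tested. Among D cyclins and inhibitors of cyclin-dependent kinases, 1 of 16 rose, a share of 6.25% against 3.08% of all genes that changed. That gene was Ccnd1, cyclin D1, the growth-factor-responsive cyclin of G1, at 139, 124 and 142 CPM and then 161, 169.6 and 185 CPM (0.35 ± 0.059, adjusted p = 0.00179).

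Genes of the G2 and M phases are known for a bipartite promoter element: CCAAT boxes, bound by NF-Y, and the cell cycle genes homology region (CHR), bound by the DREAM and B-MYB complexes. The 120 bases before the annotated start of 4 of the 7 genes that were called with each library left out are shown here, so that these elements can be seen. They are printed 5′ to 3′ on the strand of the gene, from RefSeq, build GRCm38.p6. Capitals mark CCAAT or its reverse complement ATTGG and TTTGAA or its reverse complement TTCAAA. The windows are chr13:100786487-100786606 on the minus strand for Ccnb1, chr2:164769809-164769928 on the plus strand for Ube2c, chr11:99024190-99024309 on the minus strand for Top2a and chr7:135716380-135716499 on the minus strand for Mki67.
Ccnb1: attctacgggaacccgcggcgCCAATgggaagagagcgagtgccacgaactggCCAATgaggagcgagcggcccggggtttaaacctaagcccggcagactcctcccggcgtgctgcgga
Ube2c: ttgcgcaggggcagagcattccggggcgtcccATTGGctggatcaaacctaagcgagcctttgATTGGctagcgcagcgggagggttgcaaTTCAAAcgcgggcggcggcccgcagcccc
Top2a: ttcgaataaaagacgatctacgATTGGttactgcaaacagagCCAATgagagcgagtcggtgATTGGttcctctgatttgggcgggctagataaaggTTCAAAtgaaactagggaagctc
Mki67: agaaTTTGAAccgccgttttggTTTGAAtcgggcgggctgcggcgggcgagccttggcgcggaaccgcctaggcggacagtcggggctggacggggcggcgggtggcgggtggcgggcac
The window of Ccnb1 held 2 matches to CCAAT and none to TTTGAA. Ube2c had 2 CCAAT matches followed by 1 TTTGAA match near the start, and Top2a had 3 followed by 1. Mki67 had 2 TTTGAA matches. The window of Plk1, also among the 7 genes, is not printed and held 1 match to CCAAT and none to TTTGAA. No window was found for Ccna2 or Tpx2. The motifs CCAAT and TTTGAA were searched on both strands in the 250 bases before each start. A window was found for 23 of the 28 genes. CCAAT was present in 19 of them (82.6%) against 37.5% of all 27025 genes with a window. TTTGAA was present in 9 of 23 (39.1%) against 18.3% of all genes. It was in 6 of the 11 called members with a window and in 3 of the 12 that were not called. A match is a description of the letters and not a bound site.

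**Figure D2:**
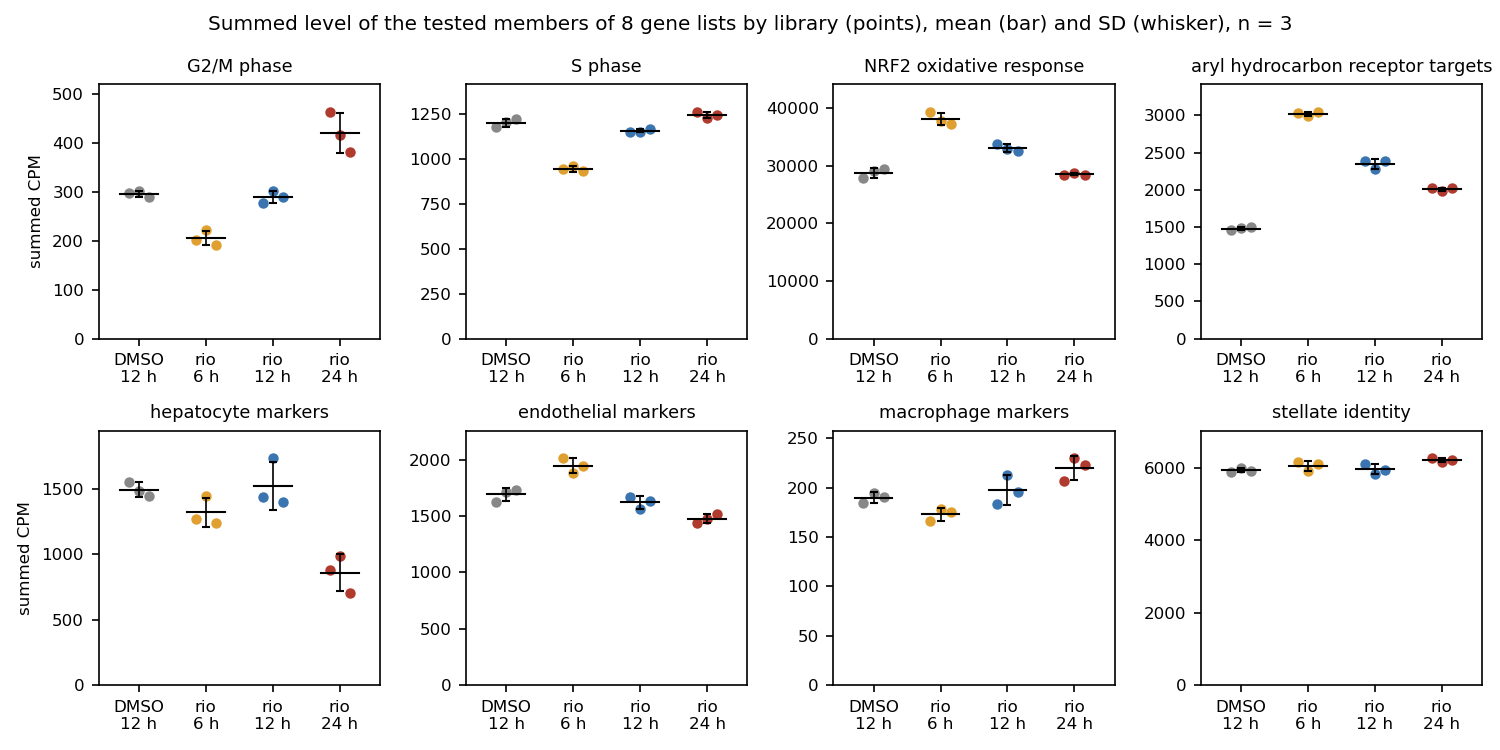
Summed CPM of the tested members of 8 gene lists in each of the 12 libraries (vertical axes, from 0), in 4 groups: DMSO 12 h and riociguat 6, 12 and 24 h; points are libraries, long lines means and error bars SDs. The G2/M sum is higher in all 3 libraries at 24 h than in any at 12 h, and the hepatocyte, NRF2 and aryl hydrocarbon receptor sums are lower.

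The 15 genes with the largest rises by rule included a pair of chemokines. Ccl6, a chemokine of the CC family, was at 10.1, 17.2 and 12.00 CPM at 12 h and 32.6, 38.1 and 32.5 CPM at 24 h, a fold change of 1.38 ± 0.16 (adjusted p = 6.20e-05). Its relative Ccl9 went from 5.86, 7.26 and 7.06 CPM to 13.2, 13.8 and 11.1 CPM (0.91 ± 0.17, adjusted p = 0.00561). The groups did not overlap for either. Myeloid cells are known to make both, and the summed macrophage markers were at 183, 213 and 196 CPM and 206, 229.7 and 223 CPM, which overlapped; their part in the result was not tested. Prl2c2, proliferin, a growth factor of the prolactin family (GRCm38 chr13:12996125-13005383), was at 63.7, 62.2 and 67.1 CPM and 162, 144 and 161 CPM (1.28 ± 0.066, adjusted p = 5.29e-09). Prl2c2 has near-identical copies, so its own share of the reads is uncertain. In the DMSO group it was at 49.7 ± 2.75 CPM (SD, n = 3), below all libraries of both exposures.

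Il1rl1, the receptor of interleukin 33 known as ST2 (GRCm38 chr1:40429570-40465415), was at 33.98, 31.9 and 36.5 CPM at 12 h and 83.4, 68.2 and 82.1 CPM at 24 h. Its fold change was 1.19 ± 0.091 (adjusted p = 9.03e-07), and its lowest library at 24 h was well above its highest at 12 h. Il33, its ligand, an alarmin stored in the nucleus, was at 15.3, 19.5 and 16.8 CPM and 30.3, 29.1 and 20.97 CPM (0.63 ± 0.13, adjusted p = 0.0091). Il33 lost its call without replicate 1 at 12 h or replicate 1 at 24 h (highest adjusted p 0.0588). Of 30 inflammatory cytokines and NF-kB genes, 3 rose and 1 fell, a share of 13.3% against 3.08% of all genes that changed. Their median was 0.041. The third that rose, the adhesion molecule Icam1 (0.19 ± 0.050), lost its call whichever of the 6 libraries was left out (highest adjusted p 0.193). Tnfaip3, a feedback inhibitor of NF-kB, had a fold change of -0.23 ± 0.051, and its call was lost without replicate 2 or 3 at 12 h or replicate 2 or 3 at 24 h (highest adjusted p 0.0972). With 1 library left out, 1 to 2 members of the list rose, and 1 without replicate 1 at either time.

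Genes of the bone morphogenetic protein (BMP) family, a list of ligands, antagonists and the protease Bmp1, moved in both directions. Of 17 tested, 4 rose and 2 fell, a share of 35.3% against 3.08% of all genes that changed. Gdf10, a divergent member of the family, was at 48.6, 51.01 and 39.6 CPM at 12 h and 90.4, 89.00 and 88.3 CPM at 24 h (0.94 ± 0.086, adjusted p = 6.51e-06). Bmp10, a ligand of the ALK1 receptor that stellate cells secrete, was at 40.9, 42.4 and 45.9 CPM and then 72.1, 63.4 and 82.1 CPM (0.76 ± 0.092, adjusted p = 0.000118). Neither gene overlapped between the times. In the DMSO group Bmp10 was at 166 ± 11.7 CPM (SD, n = 3) and Gdf10 at 33.3 ± 2.52 CPM, so at 24 h Bmp10 lay closer to the solvent level than at 12 h and Gdf10 lay farther above it. Gdf2, which encodes BMP9, the other ALK1 ligand, rose from 62.1, 58.9 and 57.00 CPM to 73.9, 73.2 and 76.5 CPM (0.33 ± 0.056, adjusted p = 0.0021). The BMP antagonist gremlin (Grem1, 0.84 ± 0.21) was called with all libraries but lost its call without replicate 1 or 2 at 12 h or replicate 1 or 3 at 24 h (highest adjusted p 0.164). Bmp6, the signal by which liver endothelial cells set hepcidin, fell from 57.5, 51.9 and 53.3 CPM to 41.01, 39.1 and 42.5 CPM (-0.41 ± 0.069, adjusted p = 0.00183). Gdf15, a stress-responsive hormone, had a fold change of -0.28 ± 0.059 and lost its call without replicate 1 at 12 h or replicate 1 or 3 at 24 h (highest adjusted p 0.0761).

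Of 27 growth factors and receptors, 2 rose and 2 fell, a share of 14.8% against 3.08% of all genes that changed. Hgf, hepatocyte growth factor, which stellate cells supply to hepatocytes, rose from 151, 155 and 153 CPM to 223, 187 and 202 CPM (0.41 ± 0.064, adjusted p = 0.00102). Pdgfra, a receptor for platelet-derived growth factor, rose by less, from 588, 599 and 599 CPM to 705, 704 and 728 CPM (0.26 ± 0.035, adjusted p = 0.000308). The groups did not overlap for either gene. Pdgfb, a ligand of that family made by endothelial cells, fell from 25.6, 25.01 and 25.2 CPM to 18.04, 18.5 and 18.3 CPM (-0.47 ± 0.093, adjusted p = 0.00701). Pdgfrb, the receptor that drives stellate cell proliferation, had a fold change of -0.14 ± 0.061 with a 95% interval of -0.27 to -0.0072 (adjusted p = 0.317). Igfbp2, an insulin-like growth factor binding protein, was at 4.89, 5.32 and 4.05 CPM and 1.90, 2.73 and 1.73 CPM (-1.18 ± 0.23, adjusted p = 0.00716). Of 24 genes of the Wnt pathway, the ligand Wnt4 (0.56 ± 0.10, adjusted p = 0.00377) and the secreted inhibitor Frzb (0.28 ± 0.048, adjusted p = 0.00211) rose. The Wnt-induced matricellular gene Ccn4 fell from 19.3, 20.4 and 23.8 CPM to 11.6, 10.3 and 12.9 CPM (-0.86 ± 0.11, adjusted p = 0.000239). The called share of the 24 Wnt genes was 12.5%, against 3.08% of all genes.

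Penk, the precursor of the enkephalins and another of the genes with the largest rises, was at 14.1, 11.9 and 13.8 CPM at 12 h and 27.2, 22.8 and 22.2 CPM at 24 h (0.86 ± 0.11, adjusted p = 0.000136). Pcdh9, a protocadherin, was at 30.4, 33.6 and 31.2 CPM and 60.2, 61.6 and 58.8 CPM (0.92 ± 0.083, adjusted p = 5.24e-06). Ntm, the adhesion protein neurotrimin, was at 16.8, 15.4 and 16.4 CPM and 32.7, 27.1 and 27.4 CPM (0.85 ± 0.100, adjusted p = 8.47e-05). None of these 3 genes overlapped between the times. The organic anion transporter Slco4a1 (0.998 ± 0.11), the small GTPase Rasl11a (0.91 ± 0.14) and the atypical chemokine receptor Ackr1 (1.19 ± 0.22) also rose. The serpin Serpina3g, one of a cluster of near-identical genes, had a fold change of 1.07 ± 0.27, and its call was lost whichever of the 6 libraries was left out (highest adjusted p 0.159).

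Collagen and other matrix genes did not move as 1 group. Of 21 collagen chains tested, 5 fell and 2 rose, a share of 33.3% against 3.08% of all genes that changed. Their median was -0.096. Col12a1, a fibril-associated collagen (GRCm38 chr9:79598991-79718831), had the smallest adjusted p of all 130 genes named by rule. It was at 260.0, 253 and 274 CPM at 12 h and 129, 129.5 and 129 CPM at 24 h, a fold change of -1.02 ± 0.048 (adjusted p = 2.41e-09). The groups were far apart and the libraries within each close together. In the DMSO group it was at 304 ± 19.9 CPM and after 6 h of riociguat at 341 ± 0.894 CPM (SD, n = 3). Col1a1, the main chain of collagen I (GRCm38 chr11:94936224-94953042), fell from 332, 288 and 302 CPM to 174, 211 and 206 CPM (-0.64 ± 0.072, adjusted p = 6.02e-05). The groups did not overlap.

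The partner chain of collagen I was not called. Col1a2 was at 195, 181 and 196 CPM at 12 h and 174, 188 and 214 CPM at 24 h, with a fold change of 0.0082 ± 0.066 and a 95% interval of -0.13 to 0.15. The intervals of Col1a1 (-0.79 to -0.49) and Col1a2 do not overlap, but the difference between the 2 genes was not tested. Col3a1, the fibrillar collagen III, was at 399, 405 and 353 CPM and 468, 481 and 419 CPM, and its fold change was positive, 0.24 ± 0.059 (adjusted p = 0.03). Its call was lost without replicate 3 at 12 h or replicate 1 or 2 at 24 h (highest adjusted p 0.158). The call of the fibril-associated Col14a1 (0.23 ± 0.058) was lost without replicate 1, 2 or 3 at 12 h or replicate 2 or 3 at 24 h (highest adjusted p 0.15). The basement membrane chain Col4a2 (-0.21 ± 0.043) lost its call without replicate 1 at 12 h or replicate 2 at 24 h (highest adjusted p 0.062), Col16a1 (-0.29 ± 0.058) without replicate 3 at 12 h or replicate 1 at 24 h (highest adjusted p 0.0584) and Col6a3 (-0.20 ± 0.044) without replicate 1 or 2 at 12 h or replicate 1 or 3 at 24 h (highest adjusted p 0.0948). The count of fallen chains was 3 without replicate 1 at 12 h or replicate 1 at 24 h. No chain rose without replicate 3 at 12 h or replicate 2 at 24 h. Of 22 genes that process and crosslink collagen, 1 rose and none fell, a share of 4.55% against 3.08% of all genes that changed. That gene, the procollagen protease Adamts14 (0.29 ± 0.076), lost its call without replicate 1, 2 or 3 at 12 h or replicate 2 or 3 at 24 h (highest adjusted p 0.189).

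Among genes for matrix glycoproteins, proteases and their inhibitors, more were called higher than lower at 24 h. Spp1, osteopontin, a secreted phosphoprotein of bone and injured liver (GRCm38 chr5:104435118-104441050), was at 363, 414 and 380.0 CPM at 12 h and 727, 747 and 721 CPM at 24 h (0.92 ± 0.056, adjusted p = 4.97e-08). In the DMSO group it was at 266 ± 13.97 CPM (SD, n = 3). Of 34 matrix glycoproteins and proteoglycans, 5 rose and 1 fell, a share of 17.6% against 3.08% of all genes that changed. Their median was 0.071. Lumican (Lum), a small proteoglycan that organises collagen fibrils, rose from 51.8, 51.9 and 53.3 CPM to 89.4, 74.9 and 73.1 CPM (0.60 ± 0.10, adjusted p = 0.00178). Emilin1, an elastic fibre glycoprotein, rose from 266, 260.5 and 252 CPM to 317, 337 and 347 CPM (0.36 ± 0.043, adjusted p = 8.47e-05). The groups did not overlap in these genes. The matricellular tenascin C (Tnc, 0.30 ± 0.061) lost its call without replicate 2 at 12 h or replicate 3 at 24 h (highest adjusted p 0.0629), and the basement membrane linker Nid1 (0.19 ± 0.041) without replicate 2 at 12 h or replicate 3 at 24 h (highest adjusted p 0.0739). Tenascin X (Tnxb, -0.25 ± 0.049) lost its call without replicate 1 at 12 h or replicate 1 or 3 at 24 h (highest adjusted p 0.0627). Without replicate 2 at 12 h the risen members numbered 3.

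Of 26 genes for matrix degradation and its inhibitors, 6 rose and 1 fell, a share of 26.9% against 3.08% of all genes that changed. Mmp3, stromelysin 1, which cleaves many matrix proteins and activates other proteases, was at 441, 462 and 449 CPM at 12 h and 649.9, 658 and 638 CPM at 24 h (0.53 ± 0.037, adjusted p = 3.34e-07). Timp1, an inhibitor of these proteases, was at 192, 166 and 197 CPM and 258, 239.8 and 289 CPM (0.51 ± 0.067, adjusted p = 0.000257). Mmp10, stromelysin 2, was at 21.7, 25.3 and 25.9 CPM and 38.5, 42.96 and 49.6 CPM (0.85 ± 0.10, adjusted p = 0.000136). Proteases and an inhibitor thus rose in the same libraries. The aggrecanase-family gene Adamts9 rose from 135, 126 and 136 CPM to 185, 177 and 184 CPM (0.46 ± 0.053, adjusted p = 6.91e-05). The collagenase Mmp13 (0.67 ± 0.094) and Serpinb2 (0.68 ± 0.11), an inhibitor of plasminogen activators, rose as well. All 6 were called with each library left out in turn. The 1 that fell, the neutrophil collagenase Mmp8 (-1.16 ± 0.29), lost its call without replicate 1 or 2 at 12 h or replicate 1, 2 or 3 at 24 h (highest adjusted p 0.213).

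**Figure D3:**
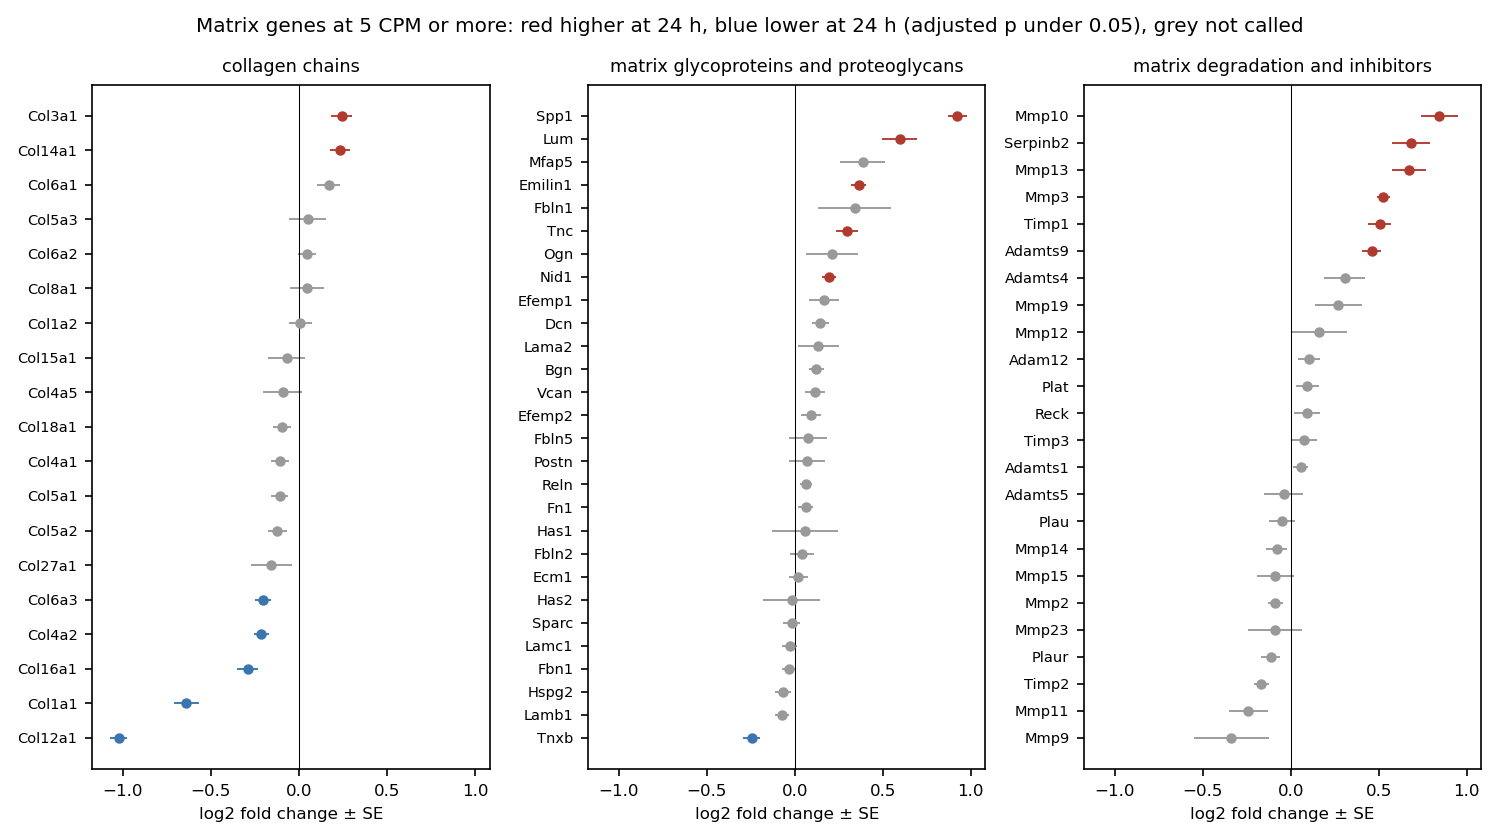
Fitted log2 fold change at 24 h over 12 h with its SE (horizontal axes) for 71 genes of the matrix lists with a mean of at least 5 CPM, in 3 panels: collagen chains, matrix glycoproteins and proteoglycans, and matrix degradation and its inhibitors; red rose, blue fell, grey did not pass. Col12a1 and Col1a1 lie at -1.02 and -0.64, and Spp1 and Mmp10 at 0.92 and 0.85.

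Many genes of the oxidative stress response fell. Of 26 genes known as targets of the transcription factor NRF2, 13 fell and none rose, against 1.71% of all genes that fell. Their median was -0.17, and in 18 of 26 every library at 24 h was below every library at 12 h, against 10.3% of all genes. The summed level was 33845, 32832 and 32575 CPM at 12 h and 28443, 28693 and 28456 CPM at 24 h, without overlap. It was 27788 to 29358 CPM with DMSO and 37293 to 39366 CPM after 6 h of riociguat. The sums at 24 h thus lay within the range of the solvent libraries. Single members lay on both sides of the DMSO level. In the same fit Gstm1 (-0.34), Osgin1 (-0.31) and Gsta3 (-0.23) were lower at 24 h than with DMSO, and Pgd (0.12) was higher (adjusted p under 0.05). With each library left out in turn, 10 to 12 members fell.

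Hmox1, haem oxygenase 1, which degrades haem (GRCm38 chr8:75093621-75100589), was at 4306, 4041 and 4124 CPM at 12 h and 3275, 3322 and 3224 CPM at 24 h. Its fold change was -0.34 ± 0.047 (adjusted p = 0.000295). With DMSO it was at 3631 ± 219 CPM and after 6 h of riociguat at 6185 ± 289.6 CPM (SD, n = 3), so its 24 h level was the lowest of the 4 group means. Ftl1, the ferritin light chain that stores the iron that haem releases, fell from 6883, 6411 and 6230.3 CPM to 4737, 5096 and 5124 CPM (-0.38 ± 0.048, adjusted p = 0.000143). Nqo1, a quinone reductase, fell from 834, 762 and 812 CPM to 676, 672 and 678 CPM (-0.25 ± 0.045, adjusted p = 0.00332). The glutathione transferase Gsta1 fell from 89.1, 86.1 and 94.00 CPM to 55.7, 57.3 and 48.4 CPM (-0.74 ± 0.066, adjusted p = 5.24e-06). It shares much of its sequence with Gsta2 (-0.62 ± 0.11), so reads between the pair may be split arbitrarily. The other fallen transferases were Gsta3 (-0.36), Gsta4 (-0.28) and Gstm1 (-0.34). The peroxiredoxin Prdx1 (-0.24 ± 0.039) and the growth inhibitor Osgin1 (-0.26 ± 0.047) fell as well. The glutathione synthesis subunit Gclm, Fth1 and Pgd each lost their call with single libraries left out. Gclm (-0.17 ± 0.043) did so whichever of the 6 libraries was left out (highest adjusted p 0.15), the ferritin heavy chain Fth1 (-0.17 ± 0.038) without replicate 1 or 2 at 12 h or replicate 1 or 3 at 24 h (highest adjusted p 0.111) and the pentose phosphate enzyme Pgd (-0.17 ± 0.037) without replicate 1 or 2 at 12 h or replicate 2 or 3 at 24 h (highest adjusted p 0.0809). Nfe2l2, which encodes NRF2 itself, was at 425 ± 3.88 CPM and 459 ± 12.02 CPM (0.11 ± 0.039, adjusted p = 0.167). The antioxidant response element TGACNNNGC, searched on both strands, was in the 250 bases before the start of 6 of the 22 list members with a window (27.3%), against 11.5% of all genes. It was in 3 of the 11 called members with a window and in 3 of the 11 that were not called.

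Of 12 targets of the aryl hydrocarbon receptor, a sensor of planar aromatic compounds, 4 fell and none rose, with a median of -0.25. Of all genes tested, 1.71% fell. Their summed level was 2388, 2275 and 2381 CPM at 12 h and 2020.0, 1987 and 2017 CPM at 24 h. It was 1457 to 1494 CPM with DMSO and 2995 to 3049 CPM after 6 h. The sum at 24 h was thus below that at 12 h and above that with DMSO in every library. Cyp1a1, a highly inducible target, was at 880.3, 784 and 857 CPM at 12 h and 701, 692 and 729 CPM at 24 h (-0.25 ± 0.053, adjusted p = 0.0129). Its libraries did not overlap, but the call was lost without replicate 1 or 3 at 12 h or replicate 1 or 2 at 24 h (highest adjusted p 0.0884). In the DMSO group Cyp1a1 was at 439 ± 33.8 CPM and after 6 h of riociguat at 1310.2 ± 15.3 CPM (SD, n = 3). Cyp1b1 (-0.28 ± 0.071) lost its call without replicate 1, 2 or 3 at 12 h or replicate 2 or 3 at 24 h (highest adjusted p 0.185). Nqo1 belongs to this list too. The glucuronosyltransferase Ugt1a6a (-0.50 ± 0.079, adjusted p = 0.00118) shares exons with the other genes of its locus, so its reads are uncertain. The list had 2 fallen members without replicate 1 or replicate 3 at 12 h or replicate 2 at 24 h.

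Several stress and immediate early genes were lower at 24 h. The heat shock genes Hspa1a and Hspa1b, near-identical neighbours whose reads cannot be separated with certainty, had fold changes of -0.64 ± 0.064 (adjusted p = 1.89e-05) and -0.47 ± 0.065 (adjusted p = 0.000352). Hspa1a was at 257, 265 and 233 CPM at 12 h and 166, 175 and 145 CPM at 24 h. The other 12 of the 14 heat shock and chaperone genes did not pass the test, and the called share was 14.3% against 3.08% of all genes. Of 26 immediate early genes, 5 fell and 2 rose, a share of 26.9% against 3.08% of all genes that changed. Their median was -0.14. Egr1, a zinc finger factor induced by growth factors and stress, was at 81.5, 78.5 and 82.5 CPM and 55.96, 55.5 and 56.3 CPM (-0.53 ± 0.055, adjusted p = 2.74e-05). Egr3 (-0.76 ± 0.15) and Klf4 (-0.38 ± 0.063), factors of similar response, also fell. All 3 were called with each library left out. Ier2 (-0.26 ± 0.065) lost its call without replicate 1, 2 or 3 at 12 h or replicate 2 or 3 at 24 h (highest adjusted p 0.183), and Klf6 (-0.19 ± 0.042) without replicate 2 or 3 at 12 h or replicate 1 or 3 at 24 h (highest adjusted p 0.0917). The risen members Ier3 (0.21 ± 0.047) and Fosl2 (0.18 ± 0.046) lost theirs without replicate 2 or 3 at 12 h or replicate 1 or 3 at 24 h (highest adjusted p 0.0917) and without replicate 2 or 3 at 12 h or replicate 1, 2 or 3 at 24 h (highest adjusted p 0.224). The fallen members numbered 3 without replicate 2 or replicate 3 at 12 h. In 12 of the 26 genes every library at 24 h was below every library at 12 h, against 10.3% of all genes.

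Few contractile genes, a common readout of stellate cell activation, passed the test. Of 24 tested, 1 rose and none fell, a share (4.17%) close to the 3.08% of all genes that changed, and their median was -0.031. Acta2, smooth muscle actin, was at 122, 120.4 and 136 CPM at 12 h and 112, 109.9 and 125 CPM at 24 h. Its fold change was -0.12 ± 0.090 with a 95% interval of -0.31 to 0.066 (adjusted p = 0.613), and the groups overlapped. The DMSO group was at 484 ± 57.5 CPM and the 6 h group at 201 ± 24.3 CPM (SD, n = 3), so the low level at 12 h was also found at 24 h. Tagln, transgelin, had values of 197, 170.1 and 194 CPM and 165, 144 and 192 CPM (-0.16 ± 0.094, 95% interval -0.36 to 0.040), below 549 ± 65.2 CPM with DMSO. It passed the test only with no filter on low counts, of the 11 alternatives tried (adjusted p = 0.0496). Desmin had a 95% interval of -0.20 to 0.048. The 1 contractile gene that rose was Mylk, myosin light chain kinase, from 161, 155 and 166 CPM to 213, 189.8 and 186 CPM (0.29 ± 0.056, adjusted p = 0.00629). Among 24 SRF targets and actin regulators, 2 rose and 3 fell, a share of 20.8% against 3.08% of all genes that changed. The formin Diaph3 (0.78 ± 0.14) rose and the small GTPase Rhob (-0.30 ± 0.058) fell with every library left out in turn. Filip1l (0.36 ± 0.077) lost its call without replicate 1 at 12 h or replicate 1 or 3 at 24 h (highest adjusted p 0.075), the actin-severing Gsn (-0.23 ± 0.046) without replicate 1 at 12 h (highest adjusted p 0.0588) and Ablim1 (-0.36 ± 0.085) without replicate 2 or 3 at 12 h or replicate 1 or 2 at 24 h (highest adjusted p 0.138).

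Of 26 targets of the mechanosensitive coactivators YAP and TAZ, 2 fell and none rose, a share of 7.69% against 3.08% of all genes that changed. Ccn2, connective tissue growth factor, was at 457, 427 and 521 CPM at 12 h and 463, 420.4 and 518 CPM at 24 h, a fold change of -0.0042 ± 0.089 with a 95% interval of -0.19 to 0.18. The groups overlapped, and the DMSO group was at 1270.4 ± 112 CPM. Gadd45b, a stress-responsive growth regulator, fell from 65.1, 66.9 and 66.04 CPM to 50.6, 50.7 and 49.01 CPM (-0.40 ± 0.055, adjusted p = 0.000328). Ptpn14 (-0.18 ± 0.046) lost its call without replicate 1, 2 or 3 at 12 h or replicate 1 or 3 at 24 h (highest adjusted p 0.231). Of 24 genes of the TGF-beta response, 3 rose and 1 fell, a share of 16.7% against 3.08% of all genes that changed. The median was 0.073. Ltbp2, which binds latent TGF-beta family complexes to the matrix, rose from 69.9, 61.1 and 69.2 CPM to 88.6, 89.4 and 84.97 CPM (0.39 ± 0.061, adjusted p = 0.00102). The calls of Tgfbi (0.29 ± 0.062), Ltbp1 (0.22 ± 0.058) and the feedback inhibitor Pmepa1 (-0.37 ± 0.079) were lost with single libraries left out: Tgfbi without replicate 1 or 3 at 12 h or replicate 3 at 24 h (highest adjusted p 0.0575), Ltbp1 without replicate 1 or 2 at 12 h or replicate 1, 2 or 3 at 24 h (highest adjusted p 0.245) and Pmepa1 without replicate 3 at 12 h or replicate 2 at 24 h (highest adjusted p 0.082). Without replicate 1 at 12 h or replicate 3 at 24 h, 1 member rose. Il11, a profibrotic cytokine, was at 38.4, 35.7 and 37.6 CPM and 39.4, 35.5 and 30.9 CPM (-0.077 ± 0.095, 95% interval -0.28 to 0.12), against 7.19 ± 1.01 CPM with DMSO.

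Of 21 genes of the cGMP pathway itself, 1 rose and 2 fell, a share of 14.3% against 3.08% of all genes that changed, and their median was 0.079. Gucy1a1 and Gucy1b1, the subunits of soluble guanylate cyclase on which riociguat acts, had fold changes of 0.29 ± 0.081 (95% interval 0.11 to 0.46, adjusted p = 0.071) and 0.10 ± 0.057 (95% interval -0.019 to 0.22, adjusted p = 0.474). Gucy1a1 was at 69.6, 80.6 and 68.9 CPM at 12 h and 93.8, 87.6 and 85.7 CPM at 24 h, and Gucy1b1 at 66.3, 67.6 and 65.2 CPM and 75.5, 67.04 and 71.02 CPM. The libraries of Gucy1a1 did not overlap and those of Gucy1b1 did. Gucy1a1 passed the test with no filter on low counts (adjusted p = 0.000724), by DESeq2 (adjusted p = 0.0218), in a fit of only the 6 libraries (adjusted p = 0.0306) and without replicate 2 at 12 h (adjusted p = 0.0345), and did not in the other 7 alternatives (highest adjusted p 0.241). Prkg1, the cGMP-dependent kinase, had a fold change of 0.27 ± 0.095 (adjusted p = 0.168) and Pde5a, the phosphodiesterase that degrades cGMP, one of 0.11 ± 0.13 (adjusted p = 0.79). Npr3, the clearance receptor of natriuretic peptides, rose from 30.5, 32.3 and 37.8 CPM to 48.3, 53.5 and 57.7 CPM (0.66 ± 0.081, adjusted p = 0.000118). With DMSO Npr3 was at 79.01 ± 3.34 CPM (SD, n = 3), so both exposures lay below the solvent level and the 12 h group was farther from it. The call of Pde2a, a cGMP-stimulated phosphodiesterase (-0.46 ± 0.094), was lost without replicate 1 or 3 at 12 h or replicate 1 at 24 h (highest adjusted p 0.0594), and that of the cyclic nucleotide exporter Abcc4 (-0.19 ± 0.045) without replicate 1 or 3 at 12 h or replicate 1, 2 or 3 at 24 h (highest adjusted p 0.141). No member fell without replicate 1 or 3 at 12 h or replicate 1 at 24 h. Of 26 genes of the cyclic nucleotide and CREB response, 1 rose, a share of 3.85% against 3.08% of all genes that changed. That gene was Cck, cholecystokinin, at 26.4, 22.5 and 25.1 CPM and 31.9, 31.5 and 39.6 CPM against 11.4 ± 1.11 CPM with DMSO (0.48 ± 0.10, adjusted p = 0.0115), and its call was lost without replicate 2 at 12 h or replicate 3 at 24 h (highest adjusted p 0.0796).

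**Figure D4:**
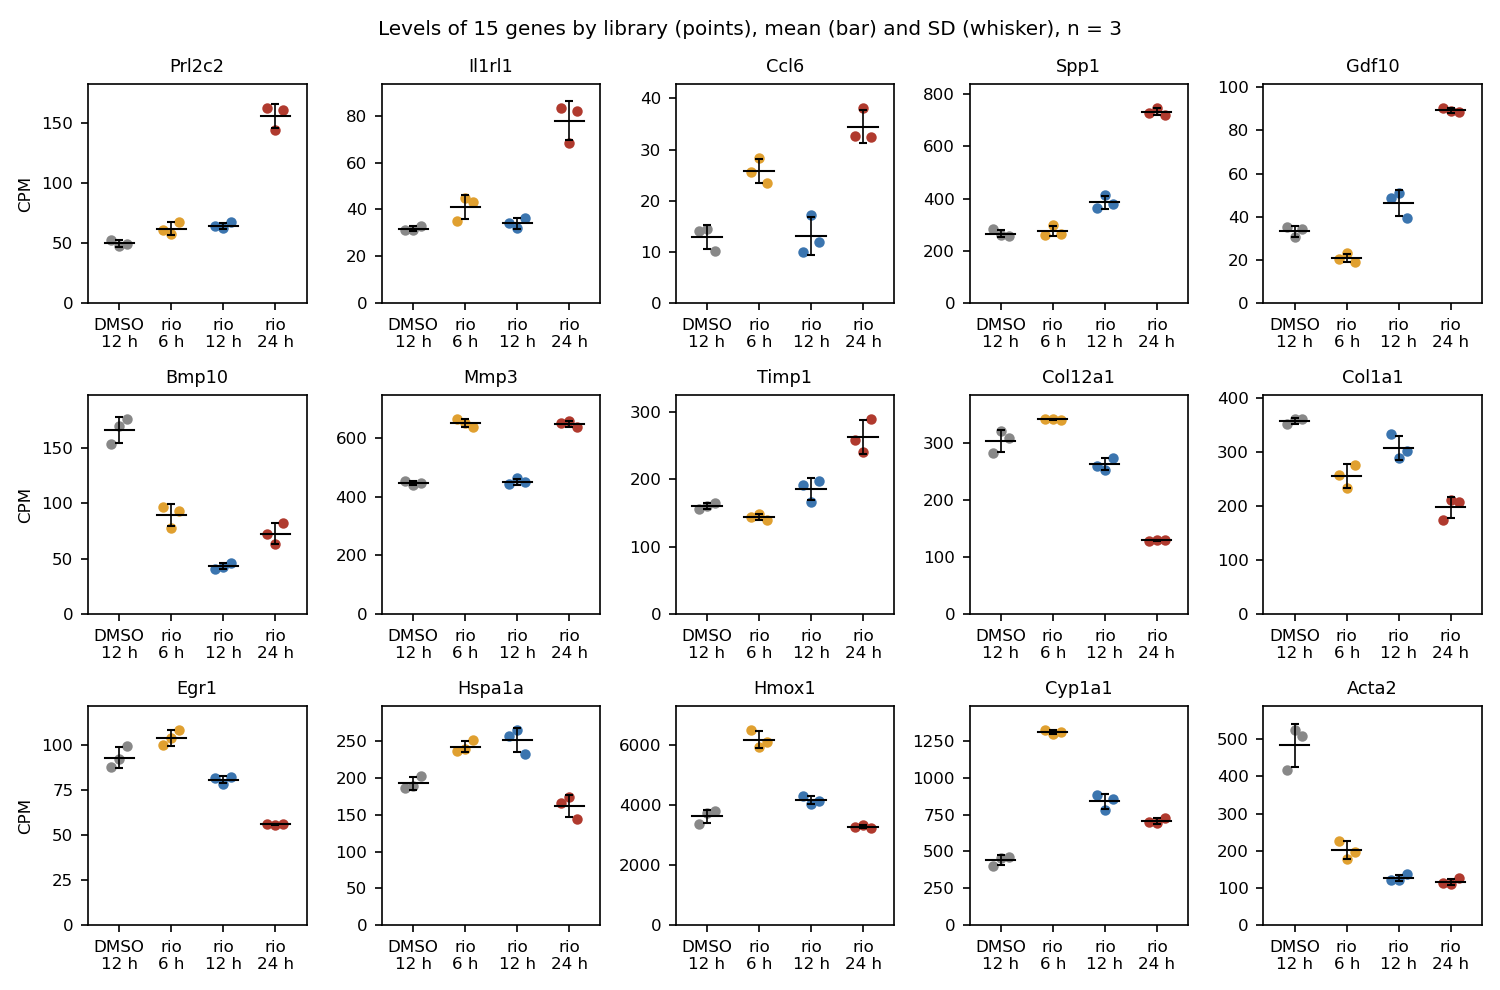
Level in CPM of 15 genes in each of the 12 libraries (vertical axes, from 0), in 4 groups: DMSO 12 h and riociguat 6, 12 and 24 h; points are libraries, long lines means and error bars SDs. Prl2c2, Il1rl1 and Spp1 are higher at 24 h than in any other group, Col12a1 is lower, and the means of Acta2 are 126 CPM at 12 h and 116 CPM at 24 h.

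Of 21 vasoactive genes, 1 rose and 2 fell, a share of 14.3% against 3.08% of all genes that changed. Ednrb, an endothelin receptor, rose from 539, 575 and 530.4 CPM at 12 h to 802, 718 and 685 CPM at 24 h (0.42 ± 0.063, adjusted p = 0.000722). The cyclooxygenase Ptgs1 (-0.17 ± 0.041) lost its call whichever of the 6 libraries was left out (highest adjusted p 0.173). Agt, angiotensinogen, a plasma protein made by hepatocytes, was the other of the 2 fallen members (-1.10 ± 0.21, adjusted p = 0.00653), and with any 1 library left out 1 member fell. Of 32 genes for retinoid and lipid storage, 3 rose and 2 fell, a share of 15.6% against 3.08% of all genes that changed. Cyp26b1, which degrades retinoic acid and is induced by it, rose from 24.9, 30.9 and 25.04 CPM to 40.1, 53.6 and 42.98 CPM (0.75 ± 0.13, adjusted p = 0.00302). The retinol dehydrogenase Rdh10 (0.37 ± 0.084) and the retinoic acid receptor Rarb (0.56 ± 0.13) were called with all libraries. Rdh10 lost its call without replicate 2 or 3 at 12 h or replicate 1 at 24 h (highest adjusted p 0.0873), and Rarb without replicate 1 or 3 at 12 h or replicate 1 or 3 at 24 h (highest adjusted p 0.101). Without replicate 3 at 12 h or replicate 1 at 24 h, 1 member rose. Rbp4, the plasma carrier of retinol, made mainly by hepatocytes (-0.74 ± 0.12, adjusted p = 0.00108), and the triglyceride lipase Pnpla2 (-0.28 ± 0.054, adjusted p = 0.00669) fell. Lrat was higher in every library at 24 h, at 8.93, 9.31 and 9.001 CPM against 5.91, 5.94 and 6.52 CPM, and did not pass the test (0.57 ± 0.21, adjusted p = 0.184). It passed in a fit of only the 6 libraries (adjusted p = 0.0332) and in none of the other 10 alternatives.

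Of the 40 gene lists, that of hepatocytes, the parenchymal cells of the liver, had the lowest median. Of 19 hepatocyte markers tested, 14 fell and none rose, against 1.71% of all genes that fell. In 17 every library at 24 h was below every library at 12 h, against 10.3% of all genes. Their median was -0.87 and all 19 fold changes were negative. Summed, they were at 1436, 1737 and 1402 CPM at 12 h and 882, 988 and 706 CPM at 24 h, against 1447 to 1555 CPM with DMSO and 1244 to 1445 CPM after 6 h of riociguat. The 24 h libraries were the lowest of all 12. Alb, serum albumin (GRCm38 chr5:90460897-90476602), was at 783, 937 and 761 CPM and 471, 539 and 389 CPM (-0.83 ± 0.093, adjusted p = 6.03e-05). Other plasma proteins fell by like amounts, among them Apoa1 (-0.86), Apoa2 (-0.87), Ttr (-0.88), Fgb (-0.87) and Ahsg (-0.88). With 1 library left out in turn, 12 to 14 markers fell. In bulk RNA, fewer hepatocytes and less of these RNAs per cell cannot be told apart.

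Of the 15 genes with the largest falls by rule, 10 are known as genes of hepatocytes. They were Vtn (vitronectin, -1.01 ± 0.13), Hrg (histidine-rich glycoprotein, -1.01 ± 0.16), Itih1 (-1.11 ± 0.18), the coagulation factor F12 (-1.12 ± 0.18), Agt, the biliary exporter Abcc2 (-1.28 ± 0.24), and Mup1 (-1.05 ± 0.14), a major urinary protein with near-identical copies. The esterases Pon1 (-1.08 ± 0.25) and Ces1f (-1.05 ± 0.22) and the cytochrome Cyp2d10 (-1.16 ± 0.27) lost their calls with single libraries left out: Pon1 without replicate 1 or 2 at 12 h or replicate 1 or 3 at 24 h (highest adjusted p 0.102), Ces1f without replicate 2 at 12 h or replicate 1 or 3 at 24 h (highest adjusted p 0.0812) and Cyp2d10 without replicate 1 or 2 at 12 h or replicate 1 or 3 at 24 h (highest adjusted p 0.116). Abcc2 was at 7.79, 8.42 and 8.45 CPM at 12 h and 3.35, 4.92 and 1.98 CPM at 24 h. The remaining 5 were Col12a1, the ubiquitin ligase subunit Fbxo2, the keratin Krt20, the steroid dehydrogenase Akr1c14 and the neuronal regeneration-related Nrep. Fbxo2 fell from 11.1, 11.6 and 10.97 CPM to 5.21, 5.10 and 3.81 CPM (-1.26 ± 0.14, adjusted p = 5.08e-05). Akr1c14 was at 8.08, 8.25 and 7.21 CPM and 3.90, 3.26 and 4.20 CPM (-1.05 ± 0.14, adjusted p = 0.000218), and after 6 h of riociguat at 15.5 ± 1.07 CPM (SD, n = 3). Nrep fell from 12.2, 11.6 and 14.7 CPM to 6.12, 6.41 and 6.58 CPM (-1.01 ± 0.13), and Krt20 from 7.07, 6.07 and 4.79 CPM to 3.44, 2.49 and 2.42 CPM (-1.09 ± 0.21). The part of the fall in hepatocyte RNA in the lower levels of Rbp4, Agt, Igfbp2, Thrsp, Akr1c14 and the Gsta genes was not tested.

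The lists of other liver cells had medians of -0.15 to 0.081. Called shares were 22.2% for endothelial, 20% for macrophage, 27.3% for cholangiocyte, 11.8% for portal fibroblast and mesothelial and 0% for lymphocyte markers. Of all genes tested, 3.08% were called. Of 18 endothelial markers, 3 fell and 1 rose. Their sum was 1671, 1562 and 1636 CPM at 12 h and 1437, 1479 and 1521 CPM at 24 h. VE-cadherin (Cdh5) fell from 302, 286 and 296 CPM to 224, 214 and 221 CPM (-0.42 ± 0.046, adjusted p = 5.37e-05). The angiopoietin receptor Tek also fell (-0.37 ± 0.068), while Fcgr2b, a sinusoidal Fc receptor, rose (0.28 ± 0.054). The call of Pecam1 (-0.26 ± 0.069) was lost whichever of the 6 libraries was left out (highest adjusted p 0.219), and 2 markers then fell. Of 15 macrophage markers, Mrc1 (0.44 ± 0.10) and Lyz2 (0.37 ± 0.090) were called higher and Csf1r (-0.30 ± 0.076) lower. Mrc1 lost its call without replicate 1 or 3 at 12 h or replicate 1 or 2 at 24 h (highest adjusted p 0.125), Lyz2 without replicate 1 or 3 at 12 h or replicate 2 or 3 at 24 h (highest adjusted p 0.154) and Csf1r whichever of the 6 libraries was left out (highest adjusted p 0.157). Csf1r was also lost by DESeq2, with no filter on low counts and with the replicate number as a block. Lyz2 and Csf1r were both lost in a fit of only the 6 libraries. The Kupffer cell genes Clec4f (0.425 ± 0.2 CPM at 12 h) and Vsig4 (1.81 ± 0.278 CPM) were near the detection limit. Of 11 cholangiocyte markers, Spp1 rose, and the calls of Krt19 (-0.30 ± 0.065) and Cldn4 (-0.30 ± 0.060) were lost without replicate 2 or 3 at 12 h or replicate 2 or 3 at 24 h (highest adjusted p 0.0821) and without replicate 2 at 12 h (highest adjusted p 0.0541). Of 17 markers of portal fibroblasts and mesothelium, Cd34 (-0.31 ± 0.048) and Gas6 (-0.31 ± 0.056) fell. None of the 7 lymphocyte markers tested was called by edgeR or by DESeq2, and 0 had an unadjusted p under 0.05. The part of endothelial cells in the lower levels of Bmp6 and Pdgfb, and of these other cells in the results above, was not tested.

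**Figure D5:**
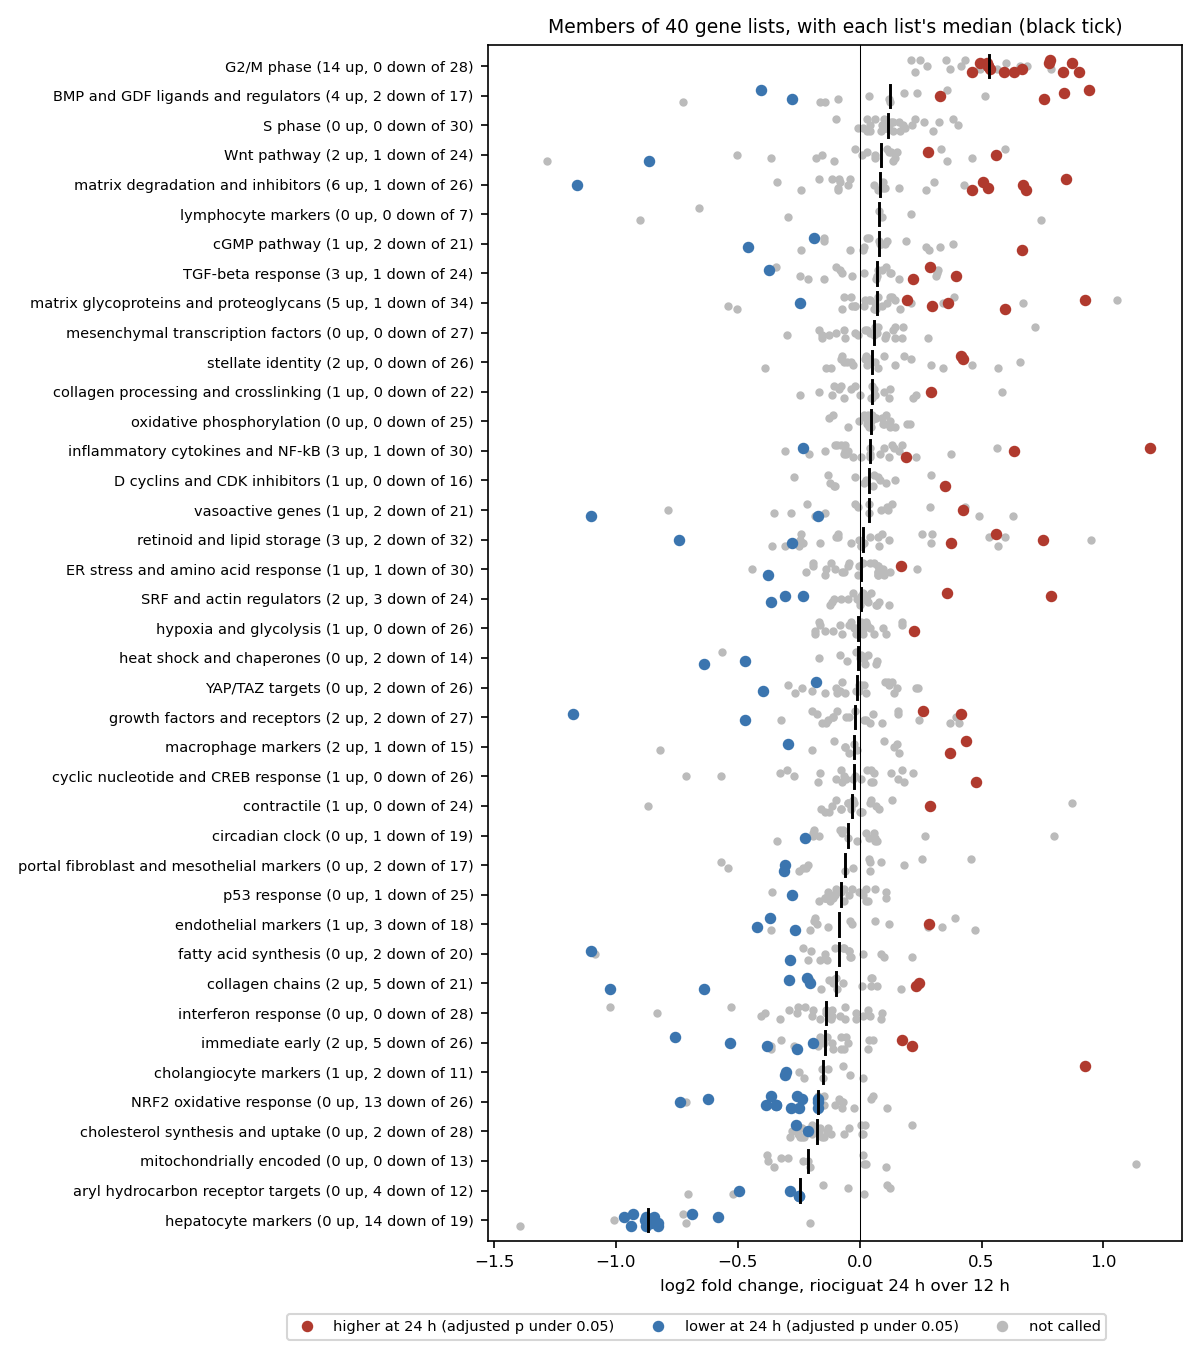
Fitted log2 fold change at 24 h over 12 h (horizontal axis) of each tested member of the 40 gene lists (rows, ordered by the list's median, black tick); red rose, blue fell, grey did not pass. G2/M genes lie at the top with a median of 0.53 and hepatocyte markers at the bottom with -0.87, and the medians of the other lists lie between -0.25 and 0.12.

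The remaining lists held 0 to 2 called genes each, and the highest share was 10%, for fatty acid synthesis, against 3.08% of all genes. None of 28 interferon response genes, 27 mesenchymal transcription factors, 25 nuclear genes of oxidative phosphorylation or 13 mitochondrially encoded genes did, by edgeR or by DESeq2. An unadjusted p under 0.05 was found for 1, 3, 3 and 3 of them in the same order. With no filter on low counts, 8 mitochondrially encoded genes fell and 1 rose. With that setting 2 interferon genes fell and 1 gene of oxidative phosphorylation rose. Without replicate 3 at 12 h, 1 interferon gene rose, and without replicate 2 at 24 h, 1 gene of oxidative phosphorylation rose. The summed interferon genes stood at 602 CPM in replicate 3 at 12 h against 320.8 and 321 CPM in the other 2 libraries, and at 329 to 399 CPM at 24 h. Of 28 genes for cholesterol synthesis and uptake 2 fell, among them Srebf2, a transcription factor that controls genes of sterol synthesis (-0.21 ± 0.041, adjusted p = 0.00626). The median of that list was -0.18, 12 of its genes were lower in every library at 24 h (10.3% of all genes were), and 5 fell without replicate 1 at 24 h. Of 20 genes for fatty acid synthesis, the desaturase Scd2 (-0.29 ± 0.044) and the lipogenic regulator Thrsp (-1.10 ± 0.21) fell. Ldha, lactate dehydrogenase, was the 1 of 26 hypoxia and glycolysis genes that rose, from 689, 677 and 668 CPM to 775, 804 and 795 CPM (0.22 ± 0.037, adjusted p = 0.00177). Of 30 genes of the ER stress and amino acid response, the secreted chaperone Manf (0.17 ± 0.044) and the stress factor Ddit3 (-0.38 ± 0.076) were called, and both calls were lost with single libraries left out: Manf whichever of the 6 libraries was left out (highest adjusted p 0.133) and Ddit3 without replicate 3 at 12 h or replicate 1 at 24 h (highest adjusted p 0.0503). The 1 called gene among 19 of the circadian clock, Tef (-0.23 ± 0.056), lost its call without replicate 1 or 2 at 12 h or replicate 1 or 3 at 24 h (highest adjusted p 0.203). The 1 called gene among 25 of the p53 response was Gdf15, described above.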

How the data were processed

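The authors deposited 1 table of estimated counts (expected counts, all of them whole), and FastQC, fastp, Salmon, DESeq2 and build GRCm38 are named in the submitters' processing notes. Roles, versions, annotation release and strand setting are not in the sources used here. Salmon shares reads between similar transcripts, so near-identical or overlapping genes are uncertain. Of 53452 genes, 53355 matched a symbol, and positions come from GENCODE vM21.

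Counts of all 12 libraries (4 groups of 3) were fitted together with edgeR 4.0.16 in R 4.3.3, after filterByExpr and TMM scaling, by glmQLFit on group alone, and tested two-sided by glmQLFTest. The contrast was riociguat 24 h minus 12 h, and p-values were adjusted by Benjamini-Hochberg over the 16036 genes left. The biological coefficient of variation was 0.0798, with 8 residual and 8.80 prior degrees of freedom. The code was tested on simulated counts. Chi-square values per degree of freedom between the 6 pairs of libraries within the groups compared were 4.54 to 7.93, so no pair agreed within sampling noise.

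The gene lists (40 lists, 905 tested entries) and the rule for named genes were chosen with earlier results of these data known. Lists are described by counts and medians, without a set test. Named genes are the 15 risen and the 15 fallen genes with the largest fold changes whose groups did not overlap, whose higher group averaged 5 CPM or more and whose symbol is no clone or pseudogene name, 18 genes fixed by name, and up to 4 called members of each list with the smallest p; other list members are given as list members. Alternatives were RLE and upper-quartile scaling, no filter and a stricter filter (1 CPM), DESeq2 1.42.0, only the 6 libraries, the replicate number as a block, a fold limit and each of the 12 libraries left out, of which 5 reference libraries were added after the data were seen; single genes and lists were followed with the 6 compared libraries left out. Some items are not reported here by name.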

Additional observations from a re-analysis of the deposited data

How the results depend on the processing

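With no filter on low counts 838 genes changed (373 risen, 465 fallen), and 209 (74 risen, 135 fallen) remained with a log2 fold change of at least 0.5 required. Leaving out each of the 12 libraries in turn gave 318 to 551 changed genes, 143 to 243 risen and 172 to 308 fallen. The highest values came without replicate 1 of the DMSO group, which entered the estimate of the spread. The cause of these shifts was not tested, and fewer libraries also mean fewer degrees of freedom. The replicate number as a block gave 443 changed genes (191 risen, 252 fallen). Same-numbered libraries of the 2 groups deviated from their group means with correlations of -0.051 to -5.3e-06, so the numbers were not taken to pair the samples. DESeq2 called 659 genes, RLE scaling 498, upper-quartile scaling 521 (196 risen, 325 fallen), a stricter filter 545 and a fit of only the 6 libraries 489. No setting moved the median of all genes by 0.1 on the log2 scale. Of 194 called genes that are named or listed, 124 were called under every setting in which single genes were followed, 70 lost their call under at least 1, and 0 changed direction. The replicate block lost 18 of these calls, the fit of only the 6 libraries 10, no filter 3 and DESeq2 2. Icam1 and Manf were among those lost with the block and with no filter. For most genes above, only losses with single libraries left out are named. At 3 libraries a group, genes of low level need a large fold change to be called, so a gene that did not pass is not shown to be equal.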

Other observations

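The gene sets here were chosen after the values had been seen, so their counts describe these libraries and support nothing beyond them. Genes of signalling through the shared receptor gp130 were among those that rose. Of 21 cytokines, receptors and transducers of this family tested, 6 rose and none fell, against 1.37% of all genes that rose, and their median was 0.041. The receptor of oncostatin M, Osmr, rose from 138, 143 and 127 CPM at 12 h to 198, 178 and 179 CPM at 24 h (0.45 ± 0.056 log2, SE; adjusted p = 0.000166). The gp130 gene Il6st rose from 628, 633 and 623 CPM to 780.1, 759.7 and 735 CPM (0.27 ± 0.037, adjusted p = 0.000273). Stat3, its transcription factor (0.26 ± 0.041), and Socs3, a feedback inhibitor that STAT3 induces (0.43 ± 0.065), rose as well. The call of Lifr (0.30 ± 0.059) was lost without replicate 2 at 12 h (highest adjusted p 0.0508) and that of Cebpd (0.62 ± 0.13) without replicate 3 at 12 h or replicate 2 at 24 h (highest adjusted p 0.0672). The other 15 genes were not called. Among them, the receptor chain Il6ra was lower in every library at 24 h (-0.30 ± 0.082, adjusted p = 0.0633). Jak1, Jak2 and Bcl3 were higher in every library at 24 h. The cytokine Il6 was at 3.87, 4.62 and 4.79 CPM and 3.85, 3.26 and 4.35 CPM, and its groups overlapped.

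Endothelial genes were sorted into the next sets with their fold changes known, so the opposite counts may come from the sorting alone. Of 7 venular and activated endothelial genes, 5 rose and none fell, against 1.37% of all genes that rose. Of 12 other endothelial genes 8 fell and none rose, against 1.71% of all genes that fell. Among these 8, Bcl6b, Mmrn2, Nrp1 and Kit lost their calls with single libraries left out (highest adjusted p 0.105, 0.199, 0.0935 and 0.111). P-selectin (Selp), an adhesion molecule of venules, rose from 55.3, 56.3 and 57.8 CPM to 107, 108 and 81.3 CPM (0.81 ± 0.091, adjusted p = 6.03e-05). Ackr1, the chemokine receptor of venular endothelium, was at 3.53, 2.93 and 3.26 CPM and 7.25, 8.60 and 6.38 CPM. Thrombomodulin (Thbd), counted in the same set, had a fold change of 0.57 ± 0.048, with means of 325 CPM at 12 h and 482 CPM at 24 h. Which cells made the RNA of this set was not tested. Vwf (-0.064 ± 0.078) and Vcam1 (-0.064 ± 0.041) of the same set did not pass. E-selectin (Sele, 0.72 ± 0.18) lost its call without replicate 1 or 3 at 12 h or replicate 1 or 3 at 24 h (highest adjusted p 0.193). Icam1, also among the 5 that rose, lost its call with single libraries left out, as described above. Sox17, a transcription factor of arterial endothelium, fell from 18.4, 18.3 and 20.5 CPM to 10.6, 11.8 and 11.3 CPM (-0.77 ± 0.12, adjusted p = 0.00113), and Notch4 (-0.41 ± 0.078) and Adgrl4 (-0.55 ± 0.075) fell too. Kcnj8 and Abcc9, the subunits of the potassium channel of pericytes, rose by 0.52 ± 0.10 and 0.53 ± 0.052 (adjusted p = 0.00737 and 1.78e-05). The receptor chain Il4ra rose (0.30 ± 0.042, adjusted p = 0.000371).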
